A study of Mus musculus with 28 samples.

Results

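LINE elements are the long interspersed repeats of the mouse genome, and their reads were counted by repeat family in an immunoprecipitation of ZBP1 from hippocampus. The deposited count table has 25227 entries, each a gene symbol or a repeat family, and 198 of them carry the class LINE. The 190 LINE families with at least 100 counts summed over the 4 libraries are described here. They were grouped by name alone, but with earlier results of these data known. The groups are 25 L1Md families, the youngest L1 of the mouse; 25 Lx families, rodent L1 that preceded them (4 of these are named L1Lx); 6 L1 families with other mouse or rodent names (L1_Mur, L1_Mus, L1VL and L1_Rod); 91 other L1 names, mostly the ancient mammalian L1M families; and 43 families of other LINE types, mainly L2 and CR1. The ancient L1MD families differ from L1Md by a capital letter only and were kept apart. Just inside the minimum were CR1-L3A_Croc with 107 counts and L1M6B and X21_LINE with 164 each. Just outside were X7D_LINE with 72 counts, L2-1_AMi with 55, and CR1-L3B_Croc and MamRTE2 with 53 each.

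As background, an intact L1 is transcribed from its own promoter and encodes an RNA-binding protein and an endonuclease with reverse transcriptase, with which it copies its RNA back into the genome. In the mouse, the A, Tf and Gf lineages of L1Md include copies that still move, the F lineages are their predecessors, and Lx, L1M, L2 and CR1 are broken remnants that stand mostly in introns and between genes. ZBP1 is an innate sensor whose Zα domains bind left-handed double-stranded RNA or DNA, and it signals through RIPK1 and RIPK3. Transcripts of endogenous retroelements have been proposed as its ligands.

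The 4 libraries came from hippocampus of mice aged 9 months. One pair was from WT mice and one pair from mice whose genotype the labels give as WT, 5xFAD, and which are called 5xFAD here after their titles. 5xFAD mice carry mutant human transgenes, driven in neurons by the Thy1 promoter, and model amyloid deposition. Within each pair the input had no antibody and the IP had one against ZBP1; no Zbp1 mutation is labelled in these mice, and neither an IgG control nor an IP from Zbp1 knockout tissue was among the libraries used here. With 1 library of each kind there is no replicate check on any value below, and no test was made. Each ratio has a 95% interval that covers counting error only (exact Clopper-Pearson). These intervals are narrow because LINE rows hold many reads, and they say nothing of how a second animal or a second precipitation would differ.

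Table totals were 8911548 counts for input WT, 5742746 for IP WT, 9444018 for input 5xFAD and 6808879 for IP 5xFAD, and levels are given as CPM, counts scaled to these totals. Repeat families held 91.0% to 92.4% of all counts, and gene symbols the remaining 7.62% to 8.97%. LINE families alone held 37.1% of the counts of input WT, 36.5% of IP WT, 36.9% of input 5xFAD and 39.6% of IP 5xFAD. Satellite repeats, which share the same denominator, went from 2.69% in input WT to 3.44% in IP WT and from 1.60% in input 5xFAD to 3.67% in IP 5xFAD. Gene rows followed the levels of hippocampal mRNA only loosely. The 2426 genes whose median over the series' 24 hippocampal mRNA libraries exceeded 100 CPM had a median of 5.27 CPM in input WT, against 1.12 CPM for the 4880 genes under 0.01 CPM in hippocampus, a 4.70-fold difference; the corresponding differences were 3.71-fold in IP WT, 4.33-fold in input 5xFAD and 4.14-fold in IP 5xFAD. Camk2a, a defining mRNA of hippocampal excitatory neurons, had 50 counts in input WT (5.61 CPM) and a median of 4311 CPM in the hippocampal libraries. The labels give polyadenylated RNA as the molecule of all 4 libraries. The count table does not separate reads of LINE transcripts from reads of LINE DNA or of introns that contain LINE copies, and their part in the values was not tested. A higher share of a family in a tissue extract also does not tell more cells from more RNA per cell.

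**Figure D1:**
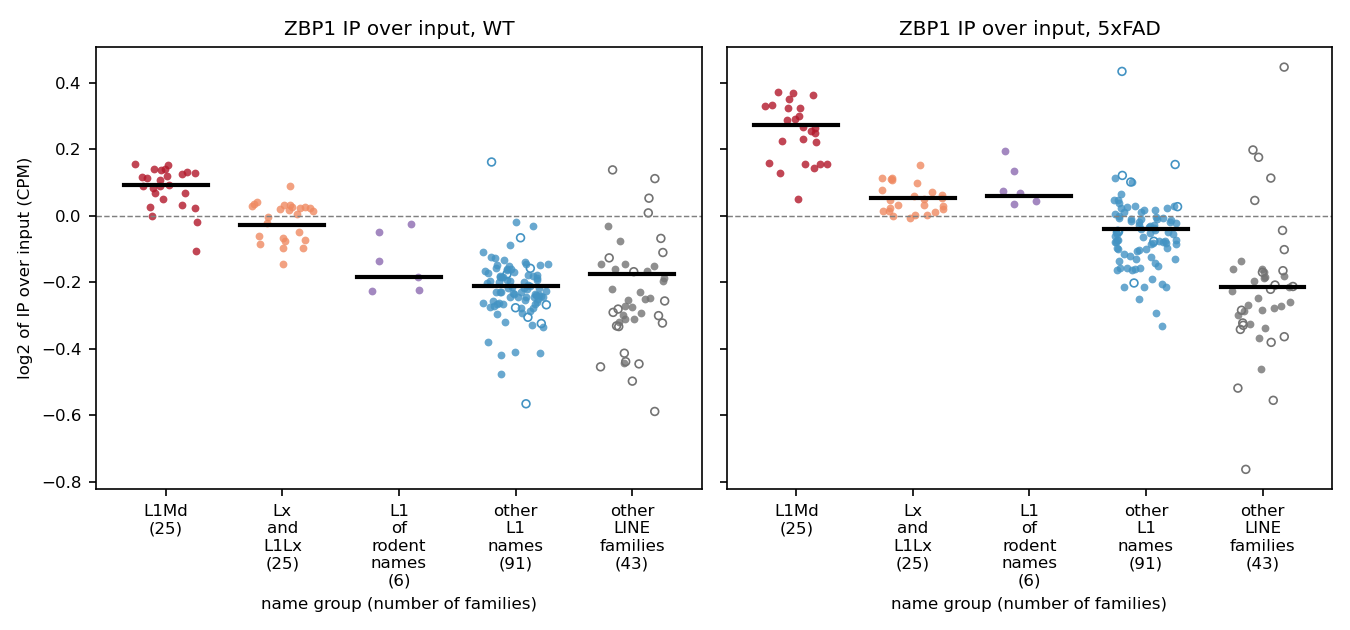
Log2 of ZBP1 IP over input, in CPM, for each of the 190 LINE families by name group, in WT (left) and 5xFAD (right). Each point is 1 family (open points have under 1000 counts in all), the black bars are the ratios of the summed counts, and the dashed line is a ratio of 1. L1Md lies highest in both panels, at 0.09 in WT and 0.27 in 5xFAD for the summed counts.

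L1Md families had a larger share of the ZBP1 IP than of the input in both genotypes. Their summed level was 121428 CPM in input WT and 129443 CPM in IP WT, and 114362 CPM in input 5xFAD and 138184 CPM in IP 5xFAD. The IP therefore stood 1.07-fold above its input in WT (1.06 to 1.07) and 1.21-fold above it in 5xFAD (1.20 to 1.21). In WT 22 of the 25 families were above 1 and in 5xFAD all 25 were. Log2 ratios spanned -0.11 to 0.15 in WT and 0.05 to 0.37 in 5xFAD, with L1MdV_III lowest and L1MdF_III highest each time. By CPM no L1Md family reached 1.5-fold in either genotype. With other library sizes the ratios shift together: under both TMM and DESeq2 sizes 18 of the 25 were at least 1.5-fold higher in 5xFAD and 0 in WT, and with gene rows as the library size 6 of 25 were above 1 in WT. The ratios of all other rows shift by the same factor, and the share of all rows past these limits was not counted under those sizes. In 5xFAD all 25 were above 1 under each of the 5 library sizes.

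The F lineage, an older L1Md branch, was the most abundant and had the highest ratios. Its 5 families summed to 40527 CPM in input WT, 44468 in IP WT, 37429 in input 5xFAD and 47274 in IP 5xFAD, which gives 1.10 in WT (1.09 to 1.10) and 1.26 in 5xFAD (1.26 to 1.27). L1MdF_IV, the most abundant L1Md family, had 13379 CPM in input WT, 14598 in IP WT, 12596 in input 5xFAD and 15776 in IP 5xFAD. Both of its IPs were above both inputs, and its ratios were 1.09 in WT and 1.25 in 5xFAD. L1MdF_III, at 9234, 10281, 8403 and 10863 CPM in the same order of libraries, showed the same arrangement at 1.11 and 1.29. L1MdF_I, L1MdF_II and L1MdF_V had 1.08, 1.07 and 1.11 in WT and 1.22, 1.26 and 1.28 in 5xFAD.

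The A lineage includes copies able to move. Its 7 families summed to 28516 CPM in input WT, 30767 in IP WT, 25959 in input 5xFAD and 32036 in IP 5xFAD, a ratio of 1.08 in WT (1.07 to 1.09) and 1.23 in 5xFAD (1.23 to 1.24). Within the lineage the lower numerals I to III stood at 1.05 in WT and 1.18 in 5xFAD and the higher numerals IV to VII at 1.10 and 1.27. The quotient of those 2 sets, which does not depend on library size, was 1.04 in WT (1.03 to 1.05) and 1.08 in 5xFAD (1.07 to 1.09). L1MdA_VI had 5752 CPM in input WT, 6328 in IP WT, 5331 in input 5xFAD and 6880 in IP 5xFAD. L1MdA_II was the nearest to its input of the 7, with 3582, 3643, 3234 and 3602 CPM in that order and ratios of 1.02 (0.999 to 1.04) in WT and 1.11 in 5xFAD. The remaining members were L1MdA_I at 1.09 and 1.17, L1MdA_III at 1.06 and 1.22, L1MdA_IV at 1.09 and 1.29, L1MdA_V at 1.10 and 1.26, and L1MdA_VII at 1.10 and 1.25, WT first.

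Tf, the other lineage with many mobile copies, was low in all libraries and close to its input in WT. Its 3 families together had 4910 CPM in input WT, 4948 in IP WT, 4516 in input 5xFAD and 5017 in IP 5xFAD. The WT ratio of 1.01 had an interval that spans 1 (0.993 to 1.02), and the 5xFAD ratio was 1.11 (1.10 to 1.13). L1MdTf_I, L1MdTf_II and L1MdTf_III had 1.02, 1.02 and 0.999 in WT, each with an interval across 1, and 1.09, 1.12 and 1.11 in 5xFAD. Relative to Tf, F stood 1.09-fold higher in WT (1.07 to 1.11) and 1.14-fold in 5xFAD (1.12 to 1.15), and A stood 1.07-fold and 1.11-fold higher. Gf, the third lineage with mobile copies, had 1.04 in WT and 1.17 in 5xFAD over 2 families: L1MdGf_I at 1.06 and 1.11 and L1MdGf_II at 1.03 and 1.19. Restricting young L1 to the A, Tf and Gf families left the summed ratio at 1.06 in WT and 1.21 in 5xFAD.

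In 5xFAD the other L1Md lineages lay below the highest F and A families. The 2 Fanc families had 1.05 each in WT and 1.19 and 1.17 in 5xFAD, the 2 Mus families 1.08 and 1.06 in WT and 1.20 and 1.17 in 5xFAD, and L1MdN_I 1.08 and 1.20. V was split. L1MdV_I had 5103 CPM in input WT, 5623 in IP WT, 4879 in input 5xFAD and 6009 in IP 5xFAD, with ratios of 1.10 and 1.23 like those of F. L1MdV_III had 6752, 6275, 6750 and 6986 CPM in that order, so that its WT IP lay below its input at 0.929 (0.917 to 0.942) and its 5xFAD IP only slightly above at 1.04 (1.02 to 1.05). L1MdV_II lay between them at 0.986 (0.970 to 1.003) and 1.11. Near-identical copies share reads between lineages, and no source used here says how the authors' counting assigned them, so differences among L1Md families are uncertain.

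**Figure D2:**
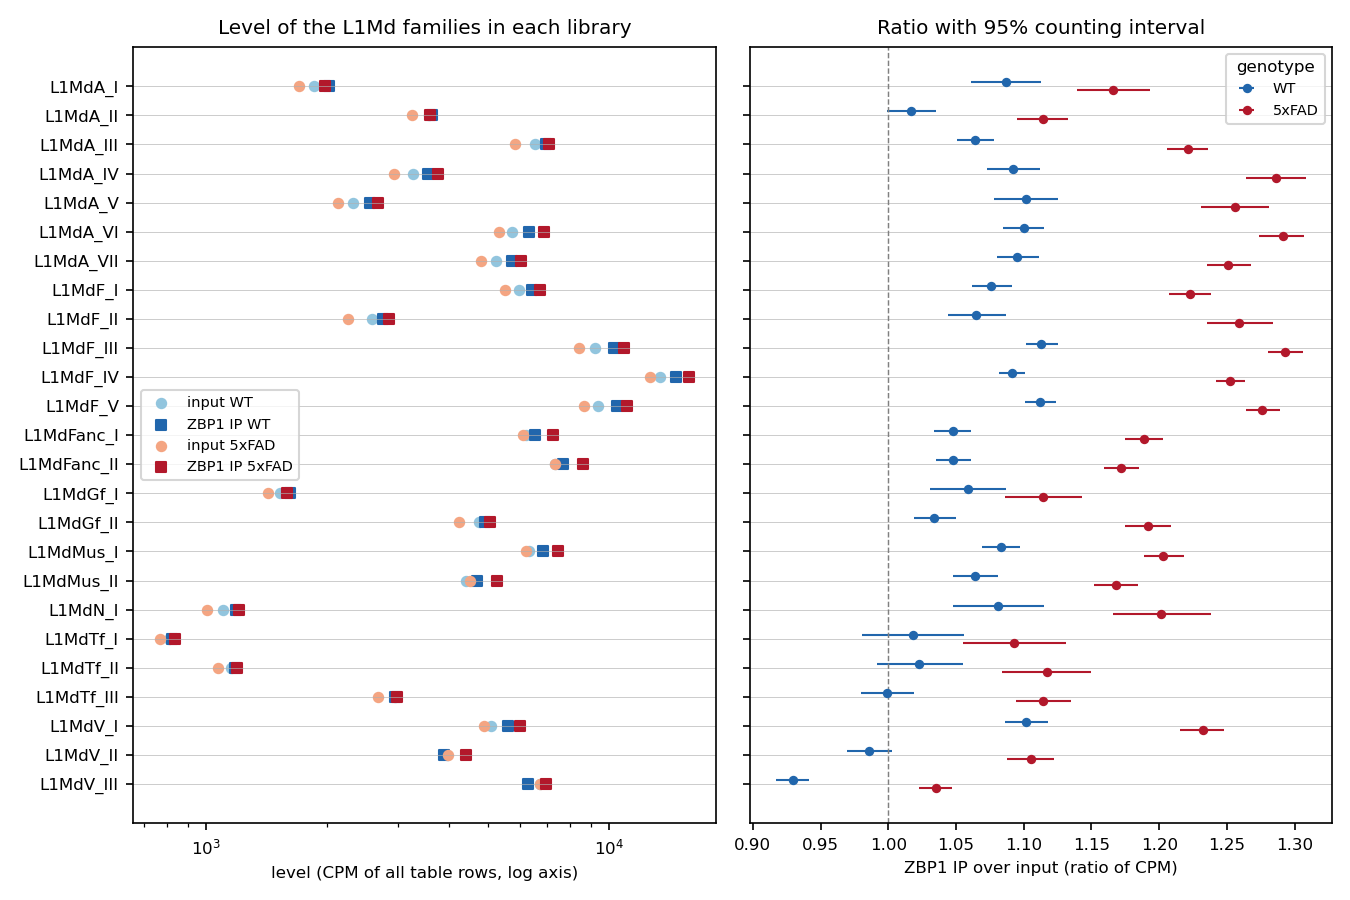
Level of the 25 L1Md families in each of the 4 libraries in CPM on a log axis (left), and ZBP1 IP over input as a ratio of CPM with its 95% counting interval in WT and 5xFAD (right). The ratio in 5xFAD lies to the right of the ratio in WT for all 25 families, and in 5xFAD the input is lower than in WT for most of them.

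The Lx families, rodent L1 that preceded L1Md, were close to their inputs. Together they had 162329 CPM in input WT, 159146 in IP WT, 167155 in input 5xFAD and 173365 in IP 5xFAD, which is 0.980 in WT (0.978 to 0.983) and 1.04 in 5xFAD (1.03 to 1.04). The direction in WT depends on the library size: with the library sizes of edgeR's TMM or of DESeq2 the summed log2 ratio of -0.03 became 0.14. In WT 14 of 25 families were above 1, and in 5xFAD 23 were. Lx8, the most abundant LINE family of all, had 16376 CPM in input WT, 15820 in IP WT, 16581 in input 5xFAD and 16704 in IP 5xFAD, and ratios of 0.966 and 1.01. Lx9 had 12511, 11708, 12632 and 13334 CPM, and Lx7 had 11816, 10675, 11957 and 12236 CPM, in the same order. For both, the IP was below the input in WT, at 0.936 and 0.904, and above it in 5xFAD, at 1.06 and 1.02.

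Among the numbered Lx families the gap between genotypes varied, and those singled out here were chosen after the values were seen. By CPM 8 of the 25 had a lower ratio in 5xFAD than in WT: Lx2A, Lx2B, Lx2B2, Lx3B, Lx3C, Lx4A, Lx4B and Lx5. Of these, Lx5 alone had a ratio of ratios whose interval stayed below 1. Under TMM, gene-row and DESeq2 library sizes all 25 Lx families were higher in 5xFAD. The median log2 ratio of ratios over all rows also turned, from -0.17 by CPM to 0.05, 0.13 and 0.04 under these sizes. The share of all rows higher in 5xFAD was not counted there. The 8 were between 1.01 and 1.07 in WT and between 0.995 and 1.03 in 5xFAD. The higher numerals Lx6, Lx7, Lx8, Lx8b, Lx9 and Lx10 were all below 1 in WT, from 0.904 to 0.966, and above 1 in 5xFAD, from 1.01 to 1.08. Lx5b, at 0.986 and 1.01, and Lx5c, at 0.9502 and 1.02, also changed side. The remaining Lx, Lx2, Lx2A1, Lx3A and Lx3_Mus were above 1 in both genotypes and higher in 5xFAD. L1Lx_I and L1Lx_III were at 1.003 and 0.997 in WT and L1Lx_II and L1Lx_IV at 0.948 and 0.943, and the 4 ranged from 1.03 to 1.11 in 5xFAD. Leaving the L1Lx names out of the group gave 0.981 in WT and 1.03 in 5xFAD.

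The 6 L1 families with other mouse or rodent names had the widest gap between genotypes of the 5 name groups. Their summed level was 24665 CPM in input WT, 21706 in IP WT, 25035 in input 5xFAD and 26077 in IP 5xFAD. The IP was 0.880 of the input in WT (0.874 to 0.886) and 1.04 times the input in 5xFAD (1.04 to 1.05), with all 6 below 1 in WT and all 6 above 1 in 5xFAD. L1_Mur3 had 8454, 7236, 8526 and 8784 CPM in input WT, IP WT, input 5xFAD and IP 5xFAD, and L1_Mur2 had 8108, 7382, 8301 and 8741 CPM. In both families the WT IP was the lowest of the 4 libraries and the 5xFAD IP the highest. L1_Rod had 0.854 in WT and 1.02 in 5xFAD, L1_Mur1 0.881 and 1.05, L1VL1 0.982 (0.937 to 1.03) and 1.14, and L1_Mus3 0.966 (0.860 to 1.08) and 1.10 (0.989 to 1.22).

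**Figure D3:**
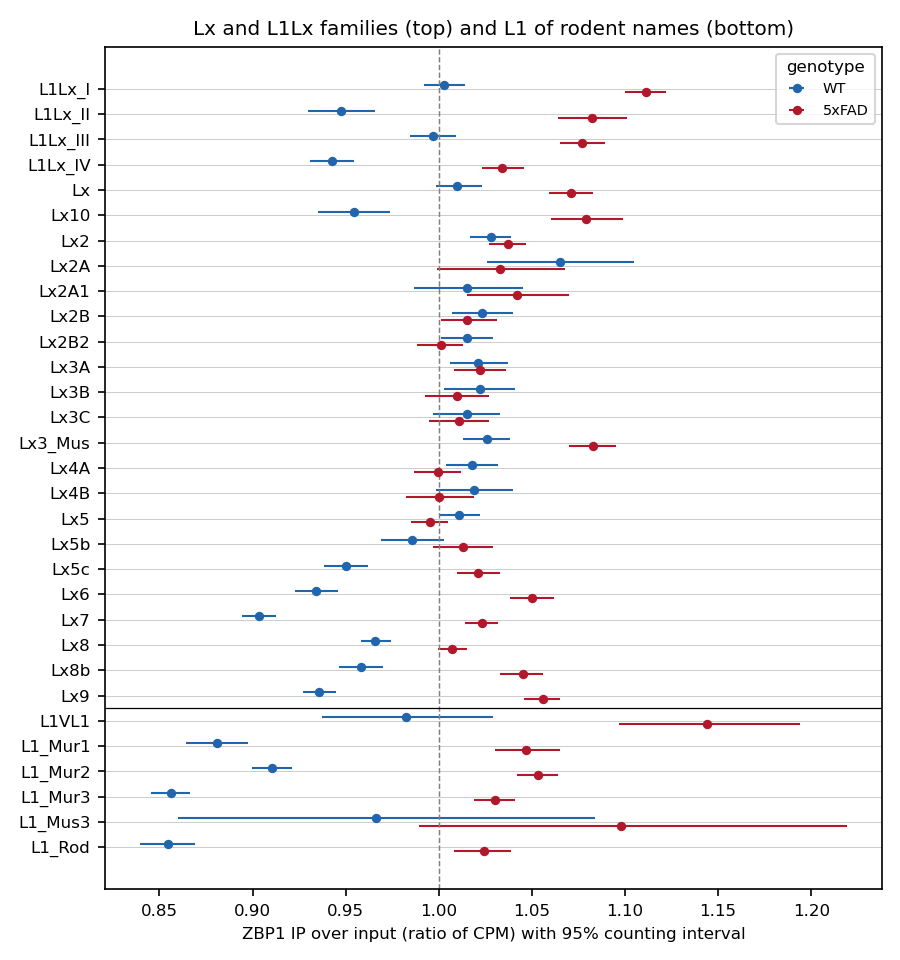
ZBP1 IP over input as a ratio of CPM with its 95% counting interval, in WT and 5xFAD, for the 25 Lx and L1Lx families (above the line) and the 6 L1 families of other rodent names (below it). The intervals of the 2 genotypes overlap for most of Lx2 to Lx5, while Lx6 to Lx10 and L1_Mur, L1_Rod lie left of 1 in WT and right of 1 in 5xFAD.

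The 91 other L1 names, mostly remnants of L1 activity before rodents arose, were in sum lower in the IP than in the input in WT. They summed to 42600 CPM in input WT, 36779 in IP WT, 42030 in input 5xFAD and 40865 in IP 5xFAD, a ratio of 0.863 in WT (0.859 to 0.868) and 0.972 in 5xFAD (0.968 to 0.977). L1P5 was the 1 family above 1 in WT, at 1.12 with an interval of 0.853 to 1.46, and in 5xFAD 21 families were. Across the L1M branches the summed ratios in WT were 0.883 for L1MA, 0.885 for L1MB, 0.867 for L1MC, 0.873 for L1MD, 0.848 for L1ME and 0.843 for the remaining L1M names, and in 5xFAD 1.01, 0.968, 0.965, 0.970, 0.937 and 0.975. The HAL1 families, L1 derivatives that lack part of the coding sequence, had 0.843 and 0.941. Among them MusHAL1, which carries a mouse name, had 0.845 and 1.02, while the others ranged from 0.817 to 0.896 in 5xFAD. L1M2 had 3389 CPM in input WT, 2840 in IP WT, 3361 in input 5xFAD and 3390 in IP 5xFAD. L1M5 had 2409, 2012, 2364 and 2237 CPM and L1M4 had 2058, 1737, 2022 and 1938 CPM in the same order. In all 3 the WT IP was the lowest of the 4 libraries.

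The lowest ratios of WT among the 160 LINE families with at least 1000 counts were L1M at 0.719 (0.609 to 0.847), X12_LINE, the I-Jockey family, at 0.735 and L1ME4a at 0.748. L1M had 52.3 CPM in input WT, 37.6 in IP WT, 49.9 in input 5xFAD and 47.1 in IP 5xFAD, and L1ME4a had 156, 117, 152 and 142 CPM. Both were near 1 in 5xFAD, at 0.945 and 0.934. The 3 largest gaps between genotypes in the upward direction were L1M, L1MEh and L1MEb, whose ratio in 5xFAD was 1.31, 1.29 and 1.25 times that in WT. L1MEh had 46.7, 35.9, 42.9 and 42.6 CPM and L1MEb 113, 93.7, 102 and 105 CPM in input WT, IP WT, input 5xFAD and IP 5xFAD. The families at the edge of the minimum had too few reads to place: L1M6B, at 0.676 in WT and 1.35 in 5xFAD, had intervals of 0.413 to 1.08 and 0.835 to 2.18.

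The 43 families of other LINE types were by CPM below their inputs in sum in both genotypes, with 4 of them above 1 in WT and 5 in 5xFAD. Their summed level was 20106 CPM in input WT, 17797 in IP WT, 20349 in input 5xFAD and 17529 in IP 5xFAD, which is 0.885 in WT (0.878 to 0.892) and 0.861 in 5xFAD (0.855 to 0.868). The direction in 5xFAD depends on the library size: the summed log2 ratio of -0.22 became 0.17 with TMM and 0.16 with DESeq2 sizes. L2 elements, the most abundant of them and far older than any rodent L1, had 0.893 and 0.862 over 12 families, none above 1 in either genotype by CPM. L2a had 4975 CPM in input WT, 4501 in IP WT, 5019 in input 5xFAD and 4412 in IP 5xFAD. L2 itself had 4892, 4363, 4925 and 4381 CPM and L2b 2657, 2377, 2728 and 2236 CPM in that order. Both IPs lay below both inputs in all 3. Among LINE families with at least 1000 counts, the lowest ratios in 5xFAD were L2-2_Mam at 0.727 (0.605 to 0.872) and the CR1 families X17_LINE at 0.775 and X6A_LINE at 0.791.

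CR1 elements, shared with birds and reptiles, had 0.850 in WT (0.832 to 0.868) and 0.858 in 5xFAD (0.842 to 0.875) over 22 families. L3 had 1698, 1448, 1708 and 1500 CPM in input WT, IP WT, input 5xFAD and IP 5xFAD, L3b had 434, 365, 453 and 361 CPM, and Plat_L3 had 132, 108, 127 and 112 CPM. The 4 RTE-X families had 0.844 and 0.875, with L4_A_Mam at 0.806 and 0.910, L4_C_Mam at 0.806 and 0.873 and L4_B_Mam at 0.948 and 0.822. The types with 1 family each were MamRTE1 (RTE-BovB) at 0.878 and 0.855, Penelope1_Vert at 0.812 and 0.894, Mam_R4 (Dong-R4) at 1.04 (0.828 to 1.30) and 0.777, X12_LINE (I-Jockey) at 0.735 and 0.835, and MARE6 (L1-Tx1) at 1.10 and 0.889, with intervals across 1 in both genotypes for MARE6. X21_LINE, the CR1 family near the minimum, had 1.01 and 1.03, also with intervals across 1.

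Set against the whole table, no LINE family was past 2-fold in any comparison. In WT 0 of 190 were at least 2-fold higher and 0 at least 2-fold lower in the IP, where the shares over all 9990 rows with at least 100 counts were 0.42% and 2.16%. In 5xFAD the counts were again 0 and 0, beside 0.23% and 7.48% of all rows. At 1.5-fold in either direction 1 LINE family passed in each genotype, CR1-L3A_Croc in both at 0.665 and 0.590, beside 15.5% of all rows in WT and 29.7% in 5xFAD. In 5xFAD that count depends on the library size, since 21 LINE families with TMM and 20 with DESeq2 sizes were at least 1.5-fold higher. In WT 4 were at least 1.5-fold lower with gene rows as the library size. The share of all rows past 1.5-fold was not counted under these other sizes, so those counts have no background here. Most rows of the table are genes of few reads, with a median of 149 counts in all against 14456 for LINE families, and their ratios scatter more from counting alone. Among the 829 rows with at least 1000 counts, 0.724% were past 2-fold in WT and 0.724% in 5xFAD. A ratio above 1 was found for 41 LINE families in WT (21.6%) beside 30.8% of all rows, and for 80 in 5xFAD (42.1%) beside 16.6%. With TMM, gene-row, repeat-row and DESeq2 library sizes these counts became 87, 8, 43 and 89 in WT and 186, 151, 72 and 185 in 5xFAD. The share of all rows above 1 was not counted under these sizes, so the changed counts have no background.

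The median log2 ratio of LINE families was -0.18 in WT and -0.03 in 5xFAD, where all rows had -0.16 and -0.35 and gene rows -0.18 and -0.40. LTR retrotransposons had -0.02 and -0.07, SINEs -0.15 and -0.25 and DNA transposons -0.21 and -0.17. LINE thus lay between SINEs and DNA transposons in WT and was the highest of these 4 classes in 5xFAD. The 7 satellite families were higher than LINE in both genotypes, at 0.14 in WT and 0.15 in 5xFAD. Where the zero of these ratios lies depends on the library size used. TMM and DESeq2 sizes moved the median over all rows from -0.16 to 0.00 and 0.01 in WT and from -0.35 to 0.04 and 0.03 in 5xFAD, and the LINE median to -0.02 and -0.01 in WT and to 0.36 and 0.35 in 5xFAD. With gene rows alone as the library size the LINE medians were -0.31 and 0.15. L1Md flipped in WT with gene rows only, where its summed log2 ratio of 0.09 became -0.04; in 5xFAD it was above 0 under all 5 library sizes, from 0.26 to 0.66.

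**Figure D4:**
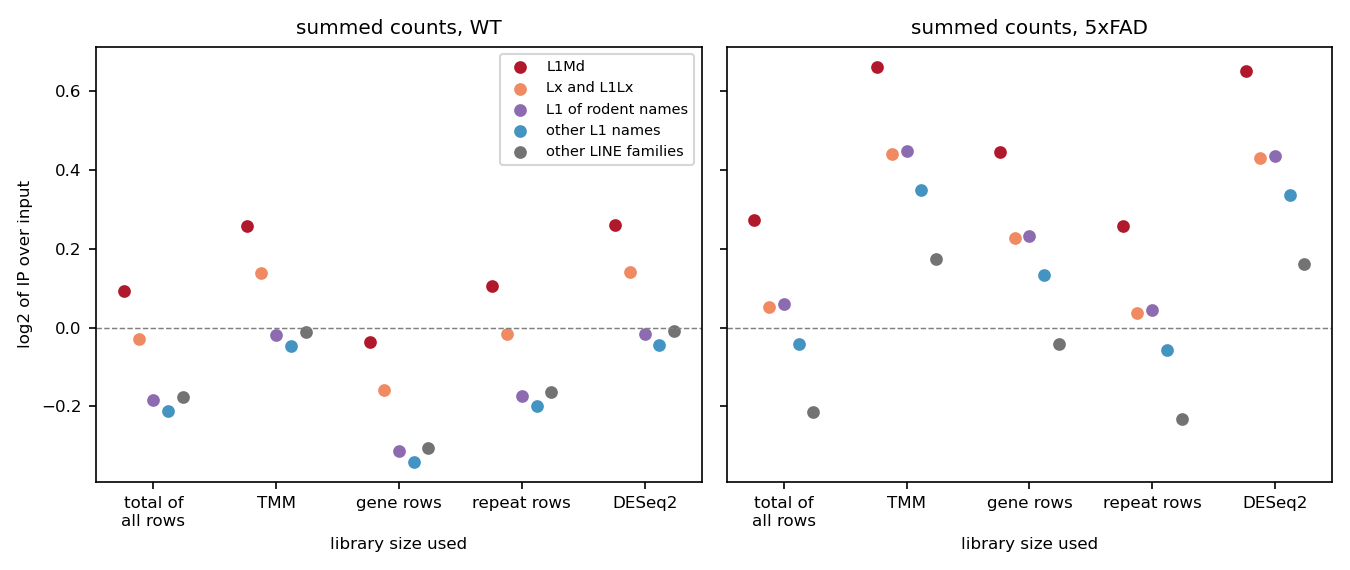
Log2 of ZBP1 IP over input from the summed counts of each name group, with 5 library sizes, in WT (left) and 5xFAD (right). Changing the library size shifts all groups of a genotype by the same amount, so L1Md stays highest while the side of 0 on which a group falls changes.

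Comparisons between name groups within a genotype cancel the library size. L1Md over all older L1 was 1.12 in WT (1.12 to 1.13) and 1.18 in 5xFAD (1.17 to 1.18), and L1Md over the other LINE types was 1.20 (1.19 to 1.21) and 1.40 (1.39 to 1.41). Against Lx the quotient was 1.09 and 1.16, against the other rodent names 1.21 and 1.16, and against the other L1 names 1.23 and 1.24. Family by family, L1Md and Lx overlapped: 24 of 25 Lx families in WT and 11 in 5xFAD were above the lowest L1Md family. Of the 25 L1Md families, 24 in WT and 25 in 5xFAD were above the highest of the 22 families of other LINE types with at least 1000 counts. Of the 82 other L1 names with that many counts, 79 in each genotype were below the lowest L1Md family; L1M8, L1MB4 and L1PB4 were not in WT, and L1M3a, L1MA6 and L1PB4 were not in 5xFAD. Among the 160 LINE families with at least 1000 counts, 19 of the 20 highest ratios were L1Md in each genotype, joined by Lx2A in WT and by L1VL1 in 5xFAD. The 20 lowest were 14 other L1 names and 6 other LINE types in WT, and 6 and 14 in 5xFAD.

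The same families tended to be high in both genotypes. Across the 160 families with at least 1000 counts, the log2 ratios of WT and 5xFAD had a Pearson r of 0.74 and a Spearman rho of 0.71, and across the 25 L1Md families alone 0.89 and 0.88. This describes families measured in the same 4 libraries, and they are not independent replicates. By CPM 86 of the 91 other L1 names and 20 of the 43 other LINE types had the higher ratio in 5xFAD, beside 35.1% of all rows. With TMM sizes 91 and 38 did, but the share of all rows was not counted under those sizes. The median log2 ratio of ratios over all rows moved from -0.17 by CPM to 0.05 with TMM sizes.

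**Figure D5:**
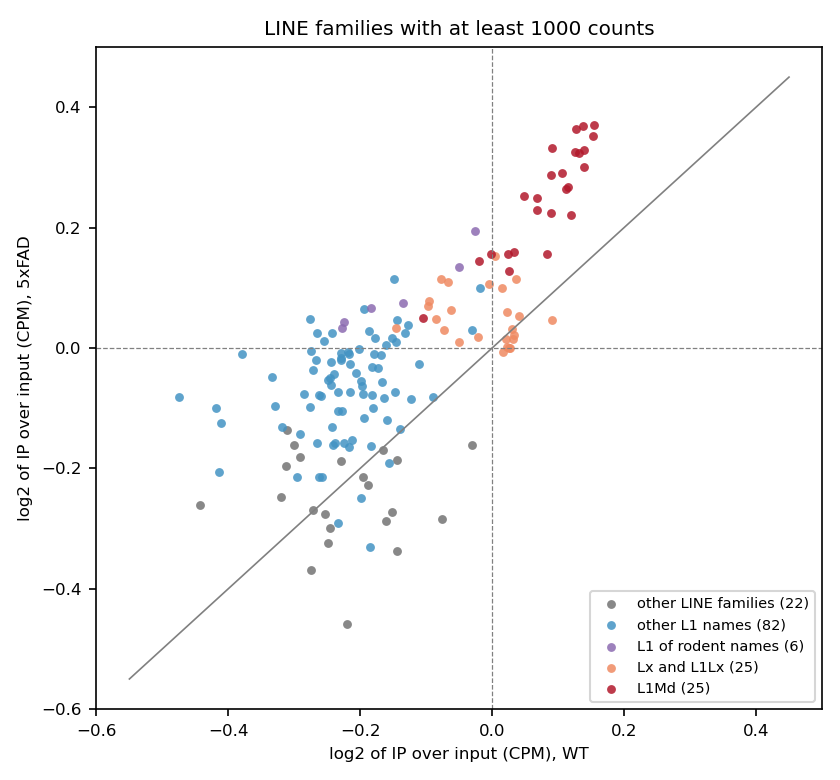
Log2 of ZBP1 IP over input in WT (x axis) against 5xFAD (y axis) for the 160 LINE families with at least 1000 counts, coloured by name group. The solid line marks equal ratios; all 25 L1Md families lie above it, and most of the 22 other LINE families lie on or below it.

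Between genotypes, the ratio of IP over input was higher in 5xFAD for 154 of 190 LINE families (81.1%), beside 35.1% of all rows. No LINE family was past 2-fold in this ratio of ratios (8.28% of all rows were). The ratio in 5xFAD was 1.13 times that in WT for L1Md (1.13 to 1.14), 1.06 times for Lx, 1.18 times for the other rodent names, 1.13 times for the other L1 names (1.12 to 1.13) and 0.973 times for the other LINE types (0.963 to 0.984). For the other LINE types the direction turned with the library size, from a log2 of -0.04 by CPM to 0.18 with TMM, 0.26 with gene rows and 0.17 with DESeq2 sizes. The quotient of L1Md and the other L1 names was thus nearly the same in both genotypes, 1.01 times as large in 5xFAD with an interval of 0.998 to 1.02. That of L1Md and the other LINE types was 1.16 times as large in 5xFAD (1.15 to 1.18).

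These differences arose on both sides of the ratio for L1Md. Among inputs, 5xFAD had 0.942 of the WT level of L1Md (0.939 to 0.944), and among IPs it had 1.07 times the WT level (1.06 to 1.07). The lower input was most marked in Gf at 0.904, A at 0.910, the 1 N family at 0.911, Tf at 0.920 and F at 0.924. It was at 0.988 for V and within 1% of WT for Mus at 0.999 and Fanc at 0.992. For the older groups the inputs were closer, at 1.03 for Lx, 1.01 for the other rodent names, 0.987 for the other L1 names and 1.01 for the other LINE types, and the IPs were at 1.09, 1.20, 1.11 and 0.985. The value below 1 for the other LINE types among IPs was above 1 with TMM, gene-row and DESeq2 sizes, at log2 values of 0.14, 0.21 and 0.13. No LINE family was past 2-fold between inputs, where 0.29% of all rows were, nor between IPs, where 3.97% were. The largest downward gaps in the ratio of ratios among families with at least 1000 counts were L2-2_Mam at 0.847, L4_B_Mam at 0.866 and X6A_LINE at 0.875.

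In the authors' deposited table of comparisons, none of the 198 LINE rows carries a call in any of the 3 comparisons, while over all rows it calls 21 higher and 2 lower for IP against input in 5xFAD, 23 and 1 in WT, and 1 and 1 between the IPs. The log2 fold changes of L1Md in the authors' deposited table run from 0.44 to 0.76 in 5xFAD, with a median of 0.66. In WT they run from 0.08 to 0.34, with a median of 0.28. The other L1 names have medians there of 0.34 in 5xFAD and -0.03 in WT, and the other LINE types 0.16 and -0.07. Over all rows with at least 100 counts the medians are 0.04 and 0.03. For LINE families, values in the authors' deposited table exceed the log2 ratios of CPM by a near-constant 0.39 in 5xFAD and 0.19 in WT. The authors' deposited table also holds unadjusted p-values, which are not counted here. The spread behind those p-values is not stated, and there is 1 library per group.

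The genes of the ZBP1 pathway and of LINE-1 control were too low in these libraries to describe closely. Zbp1 itself had 26 counts in input WT, 53 in IP WT, 25 in input 5xFAD and 50 in IP 5xFAD, a ratio of 3.16 (1.94 to 5.27) and 2.77 (1.68 to 4.68), so that its reads were more frequent in both IPs than in both inputs. Of the 12 pathway genes, Zbp1 alone was at least 2-fold higher in either genotype. Tbk1, a kinase of interferon induction, was at least 2-fold lower in WT at 0.490 (0.233 to 0.958) on 38 and 12 counts. Tnfaip3, which restrains NF-kB, and Irf3, which drives interferon genes, were so in 5xFAD at 0.353 (0.186 to 0.630) and 0.486 (0.173 to 1.20), the latter on 20 and 7 counts. The pathway genes had 7 to 69 counts per library. Of all rows with at least 100 counts, 0.42% in WT and 0.23% in 5xFAD were at least 2-fold higher. At least 2-fold lower were 2.16% in WT and 7.48% in 5xFAD, and rows of fewer counts scatter more.

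Of the 26 genes listed under LINE-1 control, among them Trim28, Setdb1, Mphosph8, Mov10 and Samhd1, none was at least 2-fold higher. In WT 1 was at least 2-fold lower, Rnaseh2a at 0.388, and in 5xFAD 3 were: Trex1 at 0.126 (0.00293 to 0.868), Rnaseh2c at 0.277 (0.00587 to 2.48) and Mettl3 at 0.462, to be read against the same 2.16% and 7.48% of all rows. Rnaseh2a and Rnaseh2c encode subunits of the nuclease that removes RNA from DNA hybrids, Trex1 a DNA exonuclease and Mettl3 the writer of m6A. They had 1 to 45 counts per library. The median log2 ratio of the list was -0.32 in WT and -0.57 in 5xFAD, beside -0.18 and -0.40 for gene rows. Thy1, whose promoter drives the 5xFAD transgenes, had 13 counts in input WT (1.46 CPM) and 1131 in input 5xFAD (120 CPM). In the hippocampal mRNA libraries it ranged from 510 to 2796 CPM, with a median of 1056. What the difference between the inputs stands for was not tested. Its IP over input was 2.03 (0.928 to 4.54) in WT, on 13 and 17 counts, and 0.921 (0.839 to 1.01) in 5xFAD.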

How the data were processed

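The authors deposited a table of counts, whole numbers of reads per gene symbol or repeat family, for the 4 RIP libraries, and count tables per gene for 24 hippocampal libraries, which were used here only to set gene levels beside them. Per the submitters' processing notes edgeR 4.0.16, DESeq2 1.42.1 and HISAT2 were among the tools and mm39 (GRCm39) and mm10 (GRCm38) the builds, with no roles, so no coordinates are given. Which counter took the repeats, how it treated reads that match several copies, and whether it used strand is not given in the sources used here. The authors' deposited table of comparisons holds log2 fold changes, p-values and calls of 1, 0 or -1, per the file headers.

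Samples were grouped by title, 1 RIP library per group. CPM are counts scaled to the total of all table rows. A ratio of CPM has an exact 95% Clopper-Pearson interval from the split of reads between the libraries; a quotient of ratios has a normal interval on the log scale. Both cover counting error only, since there is 1 library per group. Both also treat reads as independent, and reads are not independent molecules, so they can be too narrow even for counting error. R 4.3.3 with edgeR 4.0.16 (TMM) and DESeq2 1.42.0 (size factors) gave other library sizes; Python 3.11.15, pandas 2.3.3 and scipy 1.17.1 did the rest. The ratio scripts were tested on simulated data. Other minimums (20 and 1000 counts), a 1.5-fold limit, a prior count of 2 and other definitions of the groups were tried.

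Families named are all L1Md families, the 3 with most counts in each older group and LINE type (all where there are fewer), the 3 highest and lowest ratios and ratios of ratios among families with at least 1000 counts, and those nearest the minimum; others named were chosen after their values were seen. The families and gene lists were chosen with earlier results of these data known. No sequence is printed. LTR, SINE, DNA and satellite rows and the remaining tables were used for background only or not used here.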

Additional observations from a re-analysis of the deposited data

Results flagged for a closer look

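The summed ZBP1 IP over input of the Lx families was below 1 in WT (0.980) and above 1 in 5xFAD (1.04), a ratio of ratios of 1.058, and drew attention because the 2 genotypes lie on opposite sides of 1. The L1 families of other rodent names did so more widely, at 0.880 in WT and 1.04 in 5xFAD, a ratio of ratios of 1.184. Each side is 1 IP and 1 input library and the difference was not tested. The side of 1 moves with the library size: under TMM sizes the log2 values in WT and 5xFAD were 0.14 and 0.44 for Lx and -0.02 and 0.45 for the other rodent names, and the latter stayed on opposite sides of 1 under all 5 library sizes.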

How the results depend on the processing

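No paired analysis was possible because each RIP group has 1 library and the labels number no replicates, and for the same reason no library could be left out. Of the 70 alternative values, 47 stayed within the counting error or within 1.5 times of the count reported, and 23 moved. Those that moved include counts of LINE families past the fold limit, given below. The sign of the median log2 ratio over LINE families in 5xFAD turned with 3 library sizes. The median log2 ratio over LINE families moved with the library size. For IP over input in WT it was -0.18, and -0.016 with TMM, -0.31 with gene rows and -0.014 with DESeq2 sizes. In 5xFAD it was -0.03, and 0.36, 0.15 and 0.35. Between inputs -0.003 became -0.071 with gene rows. Between IPs 0.12 became 0.29, 0.36 and 0.28, and for the ratio of ratios 0.14 became 0.36, 0.44 and 0.35, in the same order. Taking the difference of family medians in place of summed counts moved L1Md over older L1 to 1.22 in WT and 1.22 in 5xFAD, with a quotient between genotypes of 1.01, and L1Md over other LINE types to 1.27 in WT, with a quotient of 1.14. Without the family with most counts in each group, L1Md over older L1 in 5xFAD was 1.17. Past 1.5-fold in place of 2-fold there was 1 LINE family in each genotype, and with a minimum of 20 counts 4 families in WT and 2 in 5xFAD were past 2-fold. The cause of these shifts was not tested beyond what each setting changes by construction. Depth limits the families near the minimum, whose intervals span a wide range around 1.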
